A study of Rattus norvegicus with 44 samples.

Results

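The genes described here are 6 metabotropic glutamate receptor genes of the rat, Grm5, Grm2, Grm3, Grm4, Grm7 and Grm8, chosen by symbol from the expression tables of CA1 and the dentate gyrus (DG), the hippocampal subregions sequenced in the study. They are 6 of 20003 rows in CA1 and 6 of 20050 in DG, and all 6 passed the filter on low values in both regions. Each of 22 male rats gave 1 CA1 and 1 DG library, 44 in all, from a single hippocampus. The young LPS rats (n = 8), aged 5 to 7 months, received lipopolysaccharide, a bacterial endotoxin that provokes inflammation outside the brain, at 1 mg per kg into the peritoneum. The aged vehicle rats (n = 6) were 14 to 16 months old and received saline, and the young vehicle rats (n = 8), aged 5 to 7 months, received saline too. All 3 groups had weekly injections over 7 weeks, and the hippocampus was removed 48 hours after the last. No transgene or mutant allele is named for any group, and no strain is given in the labels used here. No aged rat received LPS, so an effect of LPS in old age could not be examined.

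Metabotropic glutamate receptors are G protein-coupled receptors that let glutamate modulate synapses more slowly than its ion channels do. The group I receptor mGluR5, encoded by Grm5, couples to Gq, activates phospholipase C and releases calcium from internal stores. It sits mainly on the postsynaptic side of hippocampal synapses, where it takes part in a form of long-term depression. Group II (mGluR2 and mGluR3, from Grm2 and Grm3) and group III (mGluR4, mGluR7 and mGluR8, from Grm4, Grm7 and Grm8) couple to Gi/o and lower cyclic AMP. Most of them sit on axons and terminals, where they restrain transmitter release. mGluR2 is known from dentate granule cells and their mossy fibres, mGluR3 from astrocytes as well as neurons, and mGluR7 from the active zone of presynaptic terminals.

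None of the 6 receptor genes changed past the threshold with LPS, with age, or between young LPS and aged vehicle rats, in either region. The values of every receptor gene overlapped between the groups in all 6 comparisons; of all genes tested, 0.0134% (LPS), 0.235% (age) and 0.838% (young LPS against aged vehicle) had groups without overlap in CA1, and 0.0403%, 0.0738% and 0.443% in the same comparisons of DG. Grm2 in DG came nearest among the receptor genes to a difference between LPS and vehicle, and stood lower in young LPS rats. Between the regions, Grm2 and Grm7 had a higher share of the reads in DG than in CA1 in 21 and 22 of 22 rats. This was not tested, and the share of all genes with so uniform a direction is not given.

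The values are the authors' normalized read counts per library, a scale that corrects for depth and not for gene length, so levels were not compared between genes. A CA1 library held 12292346 to 18749663 recovered reads and a DG library 12130182 to 23519791, and the receptor genes were covered by 23 reads (Grm4 in 1 aged CA1 library) to 2756 reads (Grm2 in DG). The labelled regions were checked with cell type markers. The summed level of 10 CA1 pyramidal markers was 31034 to 69761 in CA1 libraries and 2671 to 18328 in DG libraries. The summed level of 12 dentate granule markers was 3183 to 9399 in CA1 libraries and 9162 to 15960 in DG libraries, so these ranges overlapped. The overlap came from 1 rat, LPS 2543, whose CA1 library had the highest granule marker sum of CA1 (9399) and whose DG library had the lowest of DG (9162). Receptor results that moved with the granule marker sum are given with its values. These are whole-tissue libraries, in which fewer cells of a type and less RNA per cell cannot be told apart.

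**Figure D1:**
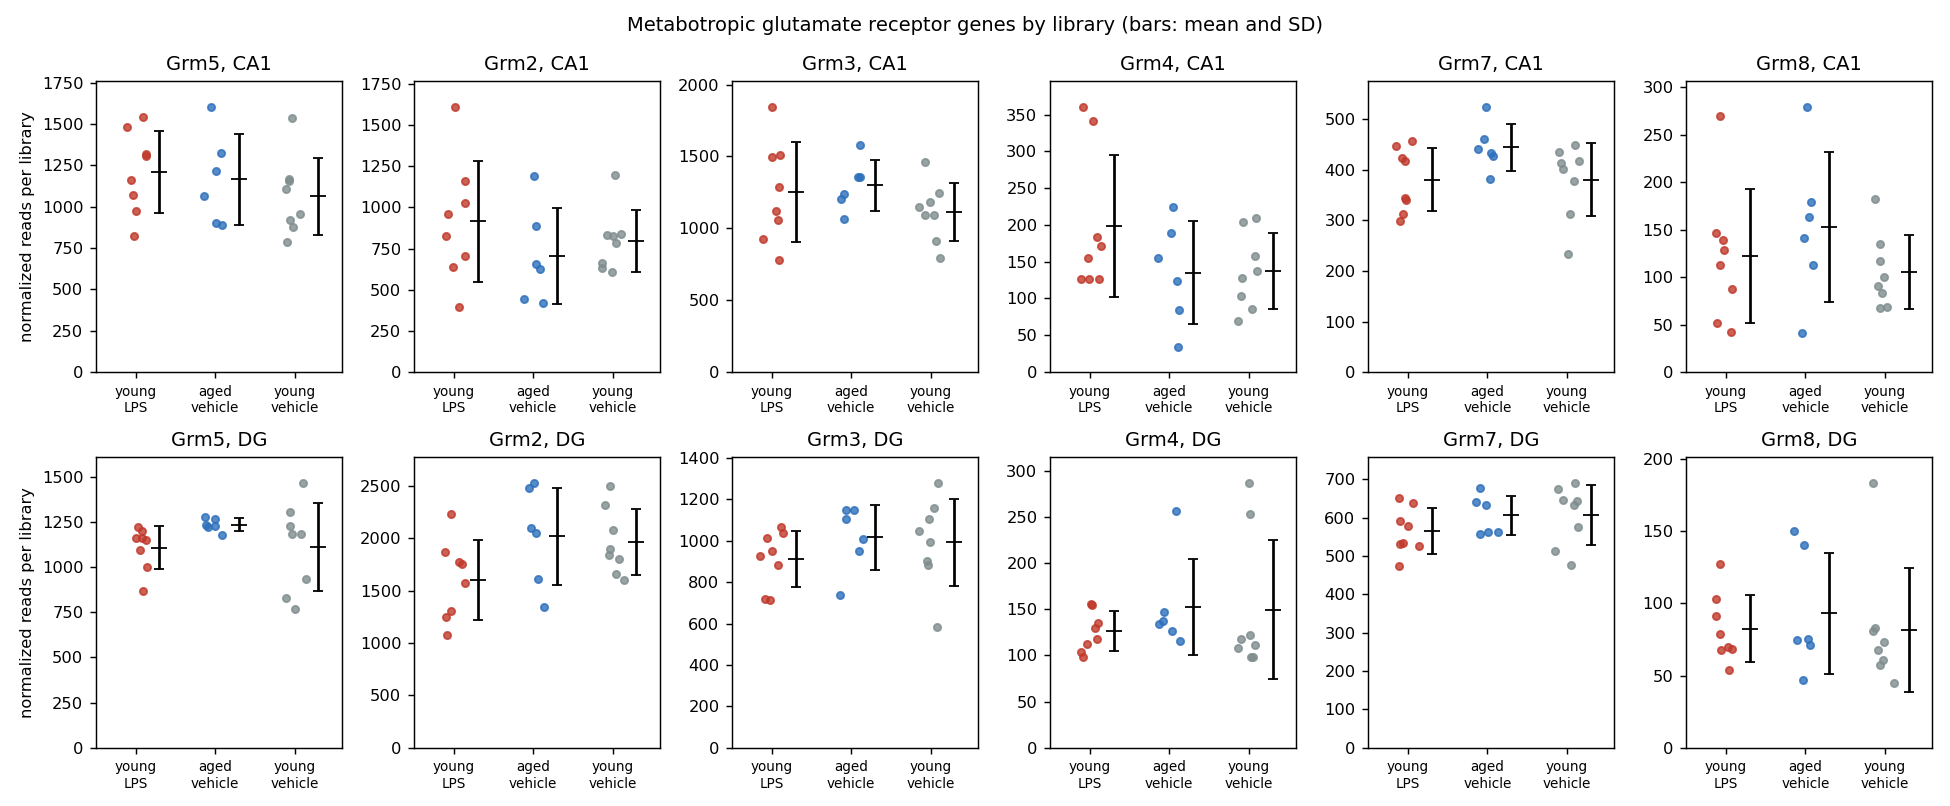
Normalized reads per library (y axis, from 0) of the 6 receptor genes in CA1 (top row) and DG (bottom row), with 1 point per library in young LPS (red), aged vehicle (blue) and young vehicle (grey) rats; bars give the mean and SD of each group. The groups overlap in each panel, Grm2 in DG is centred lower in young LPS rats, and Grm4 and Grm8 have 1 or 2 high libraries in some groups.

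The levels of the receptor genes were first set side by side across the regions. Since the tables were normalized separately, these are RPM (reads per 1000000 recovered reads), given without a test. Grm2 had a median of 112 RPM in DG (63.1 to 157) and 46.7 in CA1 (23.4 to 98.9), and was higher in DG in 21 of 22 rats. The exception was LPS rat 2543, the rat with the unusual granule marker sums. Grm7, for the presynaptic receptor mGluR7, had a median of 36.9 RPM in DG (27.7 to 42.7) and 27.4 in CA1 (12.7 to 30.9), and was higher in DG in 22 of 22 rats. Grm3 ran the other way, with a median of 61.3 RPM in DG (35.4 to 81.8) and 76.3 in CA1 (49.98 to 106), and was higher in CA1 in 18 of 22 rats. These were the 3 receptor genes with the most uniform direction across rats.

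Grm5, the postsynaptic group I receptor gene, had similar levels in both regions, with a median of 73.9 RPM in DG (46.0 to 92.3) and 72.6 in CA1 (42.7 to 104). It was higher in DG in 12 rats and in CA1 in 10. Grm4 had a median of 7.78 RPM in DG (5.96 to 17.2) and 8.87 in CA1 (1.87 to 23.4), with DG higher in 10 of 22 rats. Grm8 had a median of 4.50 RPM in DG (2.80 to 11.7) and 7.09 in CA1 (2.28 to 18.7), with DG higher in 8 of 22 rats. For these 3 genes the regions overlapped over most of their ranges.

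**Figure D2:**
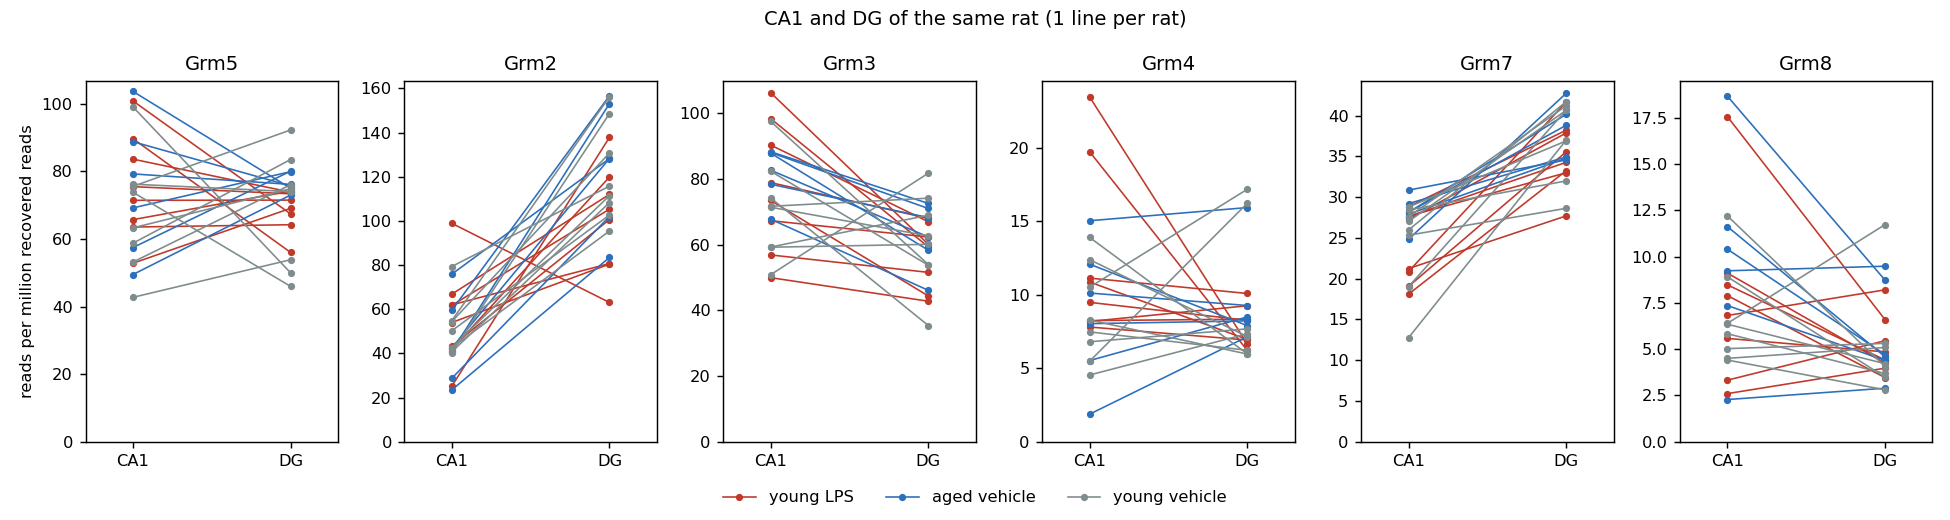
RPM, reads per 1000000 recovered reads (y axis, from 0), of each receptor gene in CA1 (left) and DG (right) of the same rat, with 1 line per rat coloured by group (young LPS red, aged vehicle blue, young vehicle grey). The lines of Grm2 and Grm7 climb to DG in 21 and 22 of 22 rats, and those of Grm3 descend in 18.

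The receptor genes also differed in how much they varied within a group. The coefficient of variation (SD over mean) of Grm7 was 8.45% to 19.0% over the 6 groups of libraries, whereas that of Grm8 was 28.4% to 58.0% and that of Grm4 17.2% to 51.6%. The highest values of Grm4 and Grm8 came from 1 or 2 libraries of a group. The tightest group was Grm5 in aged DG, where 6 libraries ran from 1178 to 1280 normalized reads (2.92%).

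The first question was whether 7 weekly LPS injections altered receptor expression in young rats. In CA1 no receptor gene was called, against 0% of the 14915 genes tested (limma, Benjamini-Hochberg adjusted p below 0.05). The all-gene count was 0 with edgeR as well and 1 with DESeq2, and 1024 genes (6.87%) reached an unadjusted p below 0.05, among them none of the receptor genes. All 6 receptor genes had a positive log2 change, with a median of 0.13, against 0.012 over all genes tested. No change passed the test. Marker lists moved in the same comparison, though none of their genes passed. A positive change was held by 9 of 10 CA1 pyramidal, 13 of 16 astrocyte and 9 of 11 oligodendrocyte precursor markers. It was held by 1 of 10 granule markers and 4 of 12 CA2 and CA3 pyramidal markers, against 52.2% of all genes. Other lists lay nearer that share, with 10 of 17 interneuron, 8 of 12 microglia, 7 of 11 endothelial and 7 of 11 meningeal markers. The rest were 11 of 15 oligodendrocyte, 7 of 10 mural, 5 of 7 subiculum and 2 of 7 choroid plexus markers. What part tissue make-up has in the shared sign of the receptor genes was not tested.

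Grm5 in CA1 had 821, 1234 and 1543 normalized reads (lowest, median, highest) in young LPS rats and 786, 1030 and 1534 in young vehicle rats. The ranges nearly coincided. The mean was 1210 ± 249 in young LPS and 1062 ± 235 in young vehicle rats (SD, n = 8 each), which is 0.19 on the log2 scale (SE 0.15, adjusted p = 0.674 by limma). The 95% interval of the change was -0.12 to 0.49.

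Of the group II genes, Grm2 in CA1 had 395, 893 and 1607 normalized reads in young LPS rats and 609, 805 and 1199 in young vehicle rats. The LPS libraries reached both lower and higher than the vehicle libraries. The mean was 914 ± 368 in young LPS and 797 ± 188 in young vehicle rats (SD, n = 8 each), which is 0.12 on the log2 scale (SE 0.23, adjusted p = 0.853 by limma). The 2 extremes of the LPS libraries lay near the ends of the granule marker sum. Rat 2543, highest for Grm2, had the highest sum of CA1 (9399), and rat 2527, lowest for Grm2, had the next to lowest (3830). Other LPS libraries followed it less closely. Rat 2403, with the lowest sum of CA1 (3183), had a Grm2 of 641, and rat 2404, next to highest for Grm2 (1157), had a sum of 6398. The log2 change was -0.0093 without 2543 and 0.28 without 2527. With a score for CA1 pyramidal over granule markers in the fit, it was 0.50 (SE 0.17, adjusted p = 0.412 by limma). What part dissection has in these values was not tested beyond that fit.

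Grm3 in CA1 had 777, 1205 and 1841 normalized reads in young LPS rats and 794, 1121 and 1459 in young vehicle rats. The highest 3 LPS libraries (2404, 2403 and 2408) stood above all vehicle libraries, and the rest lay among or below them. On the log2 scale the difference was 0.14 (SE 0.15, adjusted p = 0.733 by limma), and -0.33 with the rats of number series 25 alone. Number series here means the leading 2 digits of the animal number, whose meaning is not given. Series 25 held 4 young LPS, 2 aged and 4 young vehicle rats. Series 24 held 3 young LPS, 4 aged and 1 young vehicle rats, and series 27 held 1 young LPS and 3 young vehicle rats. The groups were therefore uneven over the series, and group and series cannot be fully told apart. The 3 LPS libraries with the highest Grm3 were all of series 24.

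Among the group III genes, Grm4 had the largest change with LPS in CA1. It had 126, 163 and 360 normalized reads in young LPS rats and 69.5, 133 and 210 in young vehicle rats. Of the LPS libraries 2 stood apart, 2403 (360) and 2404 (341), and the next highest (184) lay within the vehicle range. The mean was 199 ± 96.2 in young LPS and 137 ± 51.5 in young vehicle rats (SD, n = 8 each), which is 0.50 on the log2 scale (SE 0.32, adjusted p = 0.654 by limma). The change was 0.36 without 2403, and -0.17 (SE 0.34) with the rats of number series 25 alone, which leaves out both high libraries.

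Grm7 in CA1 had 300, 382 and 456 normalized reads in young LPS rats and 234, 408 and 449 in young vehicle rats. The log2 difference came to 0.010 (SE 0.13, adjusted p = 0.980 by limma), with a 95% interval of -0.25 to 0.27. Grm8 had 42.2, 121 and 269 normalized reads in young LPS rats and 67.6, 95.1 and 182 in young vehicle rats. On the log2 scale the difference was 0.078 (SE 0.34, adjusted p = 0.943 by limma), and -0.11 without 2403, the library with the highest Grm8 of the LPS group. Neither gene had a direction that held when single libraries were left out.

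In DG 2 of 14904 genes were called with LPS (0.0134%), and none was a receptor gene. The median log2 change of the 6 receptor genes was -0.10, against -0.0041 over all genes tested, and 4 of the 6 were negative. Grm2 was the 1 receptor gene that reached an unadjusted p below 0.05, as did 7.53% of all genes.

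Grm2 in DG had 1079, 1666 and 2237 normalized reads in young LPS rats and 1600, 1871 and 2501 in young vehicle rats. Of the 8 LPS libraries 4 lay below the lowest vehicle library, and the other 4 lay within the vehicle range. The mean was 1606 ± 381 in young LPS and 1963 ± 316 in young vehicle rats (SD, n = 8 each). The log2 difference came to -0.31 (SE 0.14, 95% interval -0.60 to -0.019, adjusted p = 0.641 by limma). It therefore did not pass over all genes. It stayed negative in all 36 alternatives, from -0.38 without 2527 to -0.17 with the rats of number series 25 alone. Granule markers moved with Grm2 in part. The 3 lowest granule marker sums of DG were those of LPS 2543 (9162), aged vehicle 2532 (9545) and LPS 2408 (9634). The 4 LPS libraries below the vehicle range of Grm2 were 2543, 2408, 2573 and 2717. Of these, 2573 (12965) and 2717 were not among the 3 lowest sums. With the mean of the granule markers in the fit, the log2 change was -0.19 (SE 0.12, adjusted p = 0.747 by limma). Of 10 granule markers tested in DG, 3 had a positive change with LPS and none passed.

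Grm3 in DG had 714, 940 and 1065 normalized reads in young LPS rats and 585, 1021 and 1278 in young vehicle rats, which is -0.10 on the log2 scale (SE 0.13, adjusted p = 0.885 by limma). All LPS libraries lay inside the vehicle range. Grm5 had 868, 1156 and 1223 normalized reads in young LPS rats and 768, 1185 and 1465 in young vehicle rats. On the log2 scale the difference was 0.018 (SE 0.11, adjusted p = 0.980 by limma) and its 95% interval -0.20 to 0.24.

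The group III genes in DG stayed close together as well. Grm4 had 98.4, 124 and 156 normalized reads in young LPS rats and 97.9, 114 and 286 in young vehicle rats. The vehicle group had 2 high libraries, 2526 (286) and 2410 (253), far above the next (122). The log2 difference came to -0.13 (SE 0.21, adjusted p = 0.911 by limma), and 0.018 without 2526. Grm7 had 474, 556 and 652 normalized reads in young LPS rats and 478, 639 and 690 in young vehicle rats, which is -0.098 on the log2 scale (SE 0.087, adjusted p = 0.828 by limma). For Grm7, 7 of 8 LPS libraries lay below the vehicle median. Grm8 had 54.2, 74.3 and 127 normalized reads in young LPS rats and 44.9, 70.5 and 183 in young vehicle rats, which is 0.098 on the log2 scale (SE 0.25, adjusted p = 0.952 by limma).

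The second question was the effect of age, from aged vehicle against the same young vehicle libraries that served as controls for LPS. In CA1 2 of 14915 genes were called (0.0134%), none of them a receptor gene. The all-gene count was 303 with library weights, and 0 in 10 of the 22 fits with 1 library left out. The median log2 change of the 6 receptor genes was 0.18, against 0.0027 over all genes, and 4 of 6 were positive. Unadjusted p-values below 0.05 were reached by 12.6% of all genes and by no receptor gene.

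Grm7 had the lowest p of the receptor genes with age in CA1. It had 381, 438 and 524 normalized reads in aged vehicle rats and 234, 408 and 449 in young vehicle rats. Of the 6 aged libraries 5 lay above the young median and 2 above all young libraries, while the lowest young library (2572, 234) lay below the next (313). The mean was 445 ± 46.8 in aged vehicle (SD, n = 6) and 380 ± 72.2 in young vehicle rats (SD, n = 8), which is 0.25 on the log2 scale (SE 0.14, adjusted p = 0.404 by limma). Without 2572 the change was 0.15.

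Grm8 in CA1 had 40.8, 152 and 279 normalized reads in aged vehicle rats and 67.6, 95.1 and 182 in young vehicle rats. The aged group held both the lowest library (2532) and the highest (2415) of both groups. On the log2 scale the difference was 0.40 (SE 0.37, adjusted p = 0.578 by limma), 0.73 without 2532 and 0.19 without 2415, and -0.38 with the rats of number series 25 alone. Grm4 had 33.5, 139 and 224 normalized reads in aged vehicle rats and 69.5, 133 and 210 in young vehicle rats, which is -0.15 on the log2 scale (SE 0.35, adjusted p = 0.833 by limma). Without 2532, the lowest library, the Grm4 change was 0.20. Both estimates moved with single aged libraries. Library 2532 also stood apart over all genes, with a chi-square per gene of 120 to 164 against the other aged CA1 libraries. Pairs of the others had 6.66 to 22.4.

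Grm2 in CA1 had 420, 641 and 1189 normalized reads in aged vehicle rats and 609, 805 and 1199 in young vehicle rats, which is -0.25 on the log2 scale (SE 0.25, adjusted p = 0.613 by limma). Of the aged libraries 2 lay below all young ones, 2532 (420) and 2412 (441). The granule marker sum ran from 4211 to 7591 in aged CA1 libraries and from 6153 to 8541 in young vehicle CA1 libraries, and with the granule marker mean in the fit the Grm2 change was 0.020 (SE 0.20).

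Grm3 in CA1 had 1062, 1296 and 1580 normalized reads in aged vehicle rats and 794, 1121 and 1459 in young vehicle rats. It was above the young median in 5 of 6 aged libraries, with a log2 change of 0.23 (SE 0.16, adjusted p = 0.468 by limma). Grm5 had 887, 1138 and 1600 normalized reads in aged vehicle rats and 786, 1030 and 1534 in young vehicle rats, which is 0.13 on the log2 scale (SE 0.16, adjusted p = 0.684 by limma). Neither change passed.

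In DG 2 of 14904 genes were called with age (0.0134%), again no receptor gene, and all 6 receptor genes had a positive change (median 0.078, against 0.0059 over all genes). None reached an unadjusted p below 0.05, as 2.99% of all genes did. Of the cell type lists, the CA1 pyramidal markers had the highest median change with age in DG (0.65), with 8 of 10 positive and none passing. Their summed level had a median of 12415 in aged vehicle and 5709 in young vehicle DG libraries. Other lists ran from 1 of 11 endothelial to 11 of 12 microglia and 3 of 3 choroid plexus markers positive, against 51.8% of all genes. The part of tissue make-up in the shared sign was not tested. Grm5 had 1178, 1229 and 1280 normalized reads in aged vehicle rats and 768, 1185 and 1465 in young vehicle rats. The aged libraries lay close together within the young range, and 3 young libraries (2526, 2571 and 2572) lay below all of them. Grm5 averaged 1234 ± 36.0 in aged vehicle (SD, n = 6) and 1112 ± 244 in young vehicle rats (SD, n = 8), which is 0.18 on the log2 scale (SE 0.12, adjusted p = 1.00 by limma).

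Grm2 in DG had 1347, 2072 and 2528 normalized reads in aged vehicle rats and 1600, 1871 and 2501 in young vehicle rats, which is 0.021 on the log2 scale (SE 0.15, 95% interval -0.29 to 0.34). Grm3 had 737, 1056 and 1150 normalized reads in aged vehicle rats and 585, 1021 and 1278 in young vehicle rats, which is 0.050 on the log2 scale (SE 0.14). Grm7 had 558, 599 and 677 normalized reads in aged vehicle rats and 478, 639 and 690 in young vehicle rats, which is 0.0052 on the log2 scale (SE 0.094). The intervals of these 3 changes lay between -0.29 and 0.34.

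Grm4 in DG had 115, 136 and 257 normalized reads in aged vehicle rats and 97.9, 114 and 286 in young vehicle rats, which is 0.11 on the log2 scale (SE 0.22). All 6 aged libraries lay above the young median, though 2 young libraries exceeded the rest of both groups except aged 2415 (257). Grm8 had 46.7, 75.0 and 150 normalized reads in aged vehicle rats and 44.9, 70.5 and 183 in young vehicle rats, which is 0.20 on the log2 scale (SE 0.27). For all DG age changes of the receptor genes the limma adjusted p was 1.00.

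The third comparison set young LPS directly against aged vehicle, to show where repeated inflammation and age differ. In CA1 1302 of 14915 genes were called (8.73%), 521 higher (3.49%) and 781 lower (5.24%) in young LPS rats, and none was a receptor gene. That count ran from 0 to 3399 when 1 library was left out, was at most 2 in 15 of those 22 fits, and was 0 with only the 2 groups in the fit. The 3 receptor genes with a higher level in young LPS rats were Grm2, Grm4 and Grm5, and the median over the 6 was -0.017, against 0.022 over all genes. No receptor gene reached an unadjusted p below 0.05, as 35.8% of all genes did.

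Grm4 had the largest difference, with 199 ± 96.2 in young LPS (SD, n = 8) and 135 ± 69.7 in aged vehicle rats (SD, n = 6). Its log2 difference was 0.66 (SE 0.35, 95% interval -0.064 to 1.38, adjusted p = 0.176 by limma). It was 0.31 without aged rat 2532, and 0.87 (adjusted p = 0.0647 by limma) with the number series in the fit. Grm2 averaged 914 ± 368 in young LPS (SD, n = 8) and 703 ± 293 in aged vehicle rats (SD, n = 6), a log2 difference of 0.37 (SE 0.25, adjusted p = 0.286 by limma). It stayed positive over 36 alternatives, from 0.19 with library weights to 0.68 with number series 25 alone, and passed in none. Grm7 averaged 381 ± 62.7 in young LPS (SD, n = 8) and 445 ± 46.8 in aged vehicle rats (SD, n = 6), a log2 difference of -0.24 (SE 0.14, adjusted p = 0.216 by limma). For Grm7, 4 of 8 LPS libraries lay below all aged libraries.

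The other CA1 differences were smaller than their errors. They were 0.058 (SE 0.16) for Grm5, -0.092 (SE 0.16) for Grm3 and -0.32 (SE 0.37) for Grm8, for which 7 of 8 LPS libraries lay below the aged median.

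In DG 2 of 14904 genes were called between young LPS and aged vehicle rats (0.0134%), with no receptor gene among them; the count was 22 with DESeq2 and 171 with library weights. All 6 receptor genes were lower in young LPS rats, with a median log2 difference of -0.16, against -0.0083 over all genes. An unadjusted p below 0.05 was reached by Grm2 alone of the 6, and by 9.1% of all genes. Of the cell type lists, the CA1 pyramidal markers had the lowest median (-0.52), with 1 of 10 positive and none passing. Other lists ran from 0 of 5 meningeal and 1 of 12 microglia to 8 of 11 endothelial markers positive, against 48% of all genes. What part tissue make-up has in the shared sign of the receptor genes in DG was not tested. Grm2 averaged 1606 ± 381 in young LPS (SD, n = 8) and 2019 ± 467 in aged vehicle rats (SD, n = 6). Their log2 difference was -0.33 (SE 0.15, adjusted p = 0.519 by limma), and -0.13 (SE 0.24) with number series 25 alone. With 1 library left out it ran from -0.44 without 2532 to -0.25 without 2543. The granule marker sum was 9162 to 15219 in young LPS and 9545 to 13956 in aged vehicle DG libraries, and with the granule marker mean in the fit the Grm2 difference was -0.36 (SE 0.12). Of the 8 LPS libraries 7 lay below the aged median and 3 below every aged library. Grm5 averaged 1108 ± 118 in young LPS (SD, n = 8) and 1234 ± 36.0 in aged vehicle rats (SD, n = 6), a log2 difference of -0.16 (SE 0.12, adjusted p = 0.710 by limma). No LPS library reached the aged median of Grm5, and 6 of 8 lay below every aged library. The remaining log2 differences were -0.15 (SE 0.14) for Grm3, -0.24 (SE 0.22) for Grm4, -0.10 (SE 0.094) for Grm7 and -0.10 (SE 0.27) for Grm8.

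**Figure D3:**
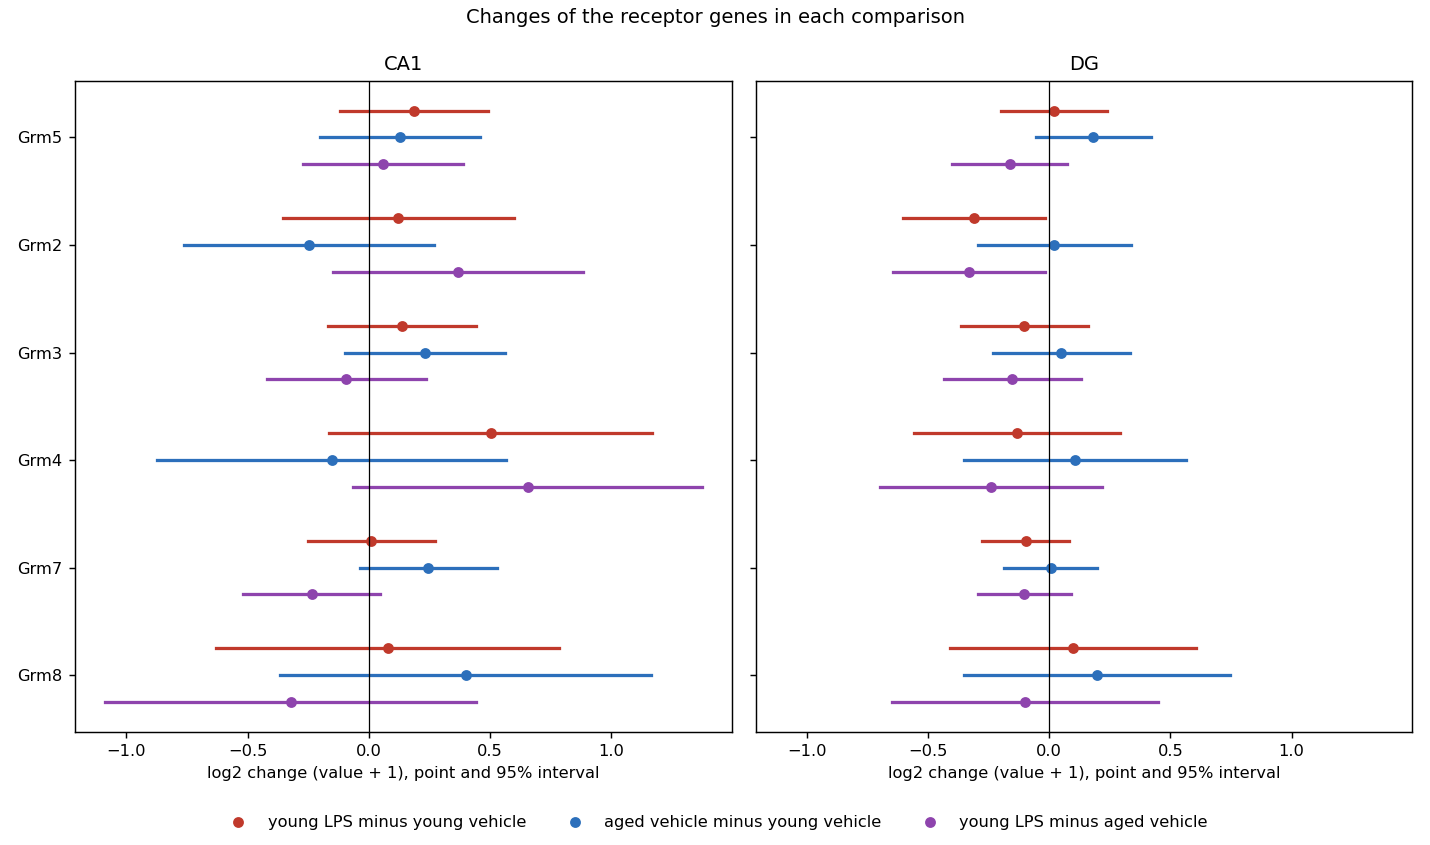
Log2 change of each receptor gene (x axis, on log2 of value + 1) in CA1 (left) and DG (right) for young LPS minus young vehicle (red), aged vehicle minus young vehicle (blue) and young LPS minus aged vehicle (purple); points are limma estimates and lines 95% intervals. Intervals of Grm4 and Grm8 are the widest, and those of Grm2 in DG with LPS lie just below 0 before adjustment over all genes.

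Some receptor genes, Grm2 among them, changed sign between the regions. The effects were therefore compared across CA1 and DG in 1 fit over 44 libraries and 14637 genes. This fit had no rat term, so both libraries of a rat entered it as independent. For LPS against young vehicle, 0% of genes differed between the regions past the threshold and no receptor gene did, while 13% of all genes reached an unadjusted p below 0.05. The LPS effect of Grm2 was 0.12 in CA1 and -0.31 in DG, a difference of 0.43 (SE 0.28, adjusted p = 0.481 by limma). That of Grm4 was 0.50 in CA1 and -0.13 in DG, a difference of 0.64 (SE 0.40, adjusted p = 0.464 by limma). Grm3 (0.14 in CA1 and -0.10 in DG) and Grm7 (0.010 and -0.098) had opposite signs too, with differences of 0.24 (SE 0.20) and 0.11 (SE 0.15). The opposite signs of these genes were therefore not shown to be a difference between the regions. For age 0% of genes passed (4.93% at an unadjusted p below 0.05, with no receptor gene), and the largest regional difference among the receptor genes was -0.27 (SE 0.31) for Grm2.

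For young LPS against aged vehicle, 13.1% of 14637 genes differed between the regions and again no receptor gene passed; Grm2 and Grm4 reached an unadjusted p below 0.05, as 32.9% of all genes did. The all-gene count, 1916, was 1315 with the rat as replicate block. It was 2 without 2543, 4 without 2420, 6 without 2408, 16 without 2532, 30 without 2404, 551 without 2415 and 899 without 2531, and reached 2856 without 2411. The Grm2 difference was 0.37 in CA1 and -0.33 in DG, which makes 0.70 between them (SE 0.31, 95% interval 0.084 to 1.32, adjusted p = 0.105 by limma). With the rat as replicate block the SE was 0.35, the unadjusted limma p 0.055 and the limma adjusted p 0.162. Without rat 2527 the value was 0.93 (adjusted p = 0.0350 by limma), without 2411 0.86 (adjusted p = 0.0440 by limma), and without 2543 0.49 (adjusted p = 0.254 by limma). The first 2 of these passed, so the call for Grm2 turned on single rats. Grm4 differed by 0.90 (SE 0.43, adjusted p = 0.141 by limma), and its unadjusted limma p with the replicate block was 0.049. The other 4 receptor genes had differences between -0.22 and 0.22.

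Within the groups, the receptor genes varied between rats together with other genes. For each receptor gene the genes with the highest correlation in both regions were found, over 22 libraries a region, on log2 values centred within groups. Such correlations are descriptive, since the libraries share dissection and depth. Grm2 varied most like Kcnc4, which encodes a voltage-gated potassium channel (r = 0.94 in CA1 and 0.90 in DG), and Dpysl4 (0.86 and 0.87). Grm3 varied most like Kcnj10 (0.80 and 0.82), which encodes an inward rectifier potassium channel of glia, and Neo1 (0.73 and 0.77), a receptor of axon guidance. Grm5 varied most like Tnks (0.89 and 0.90), a poly-ADP-ribose polymerase, and the kinase gene Taok1 (0.80 and 0.82). Grm7 had weaker partners in Stard7 (0.70 and 0.72) and Wdr37 (0.69 and 0.77).

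Grm4 and Grm8 shared a partner, Chrna4, which encodes a nicotinic acetylcholine receptor subunit. Its r with Grm4 was 0.86 in both regions, and with Grm8 0.85 in CA1 and 0.81 in DG. Grm4 also varied like RGD1561149 (0.96 and 0.85), and Grm8 like the somatostatin receptor gene Sstr1 (0.81 and 0.89). Between Grm4 and Grm8 themselves r was 0.78 in CA1 and 0.56 in DG, the highest of the 15 pairs of receptor genes in each region. The other 14 pairs had r between -0.33 and 0.42 in CA1 and between -0.44 and 0.32 in DG.

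**Figure D4:**
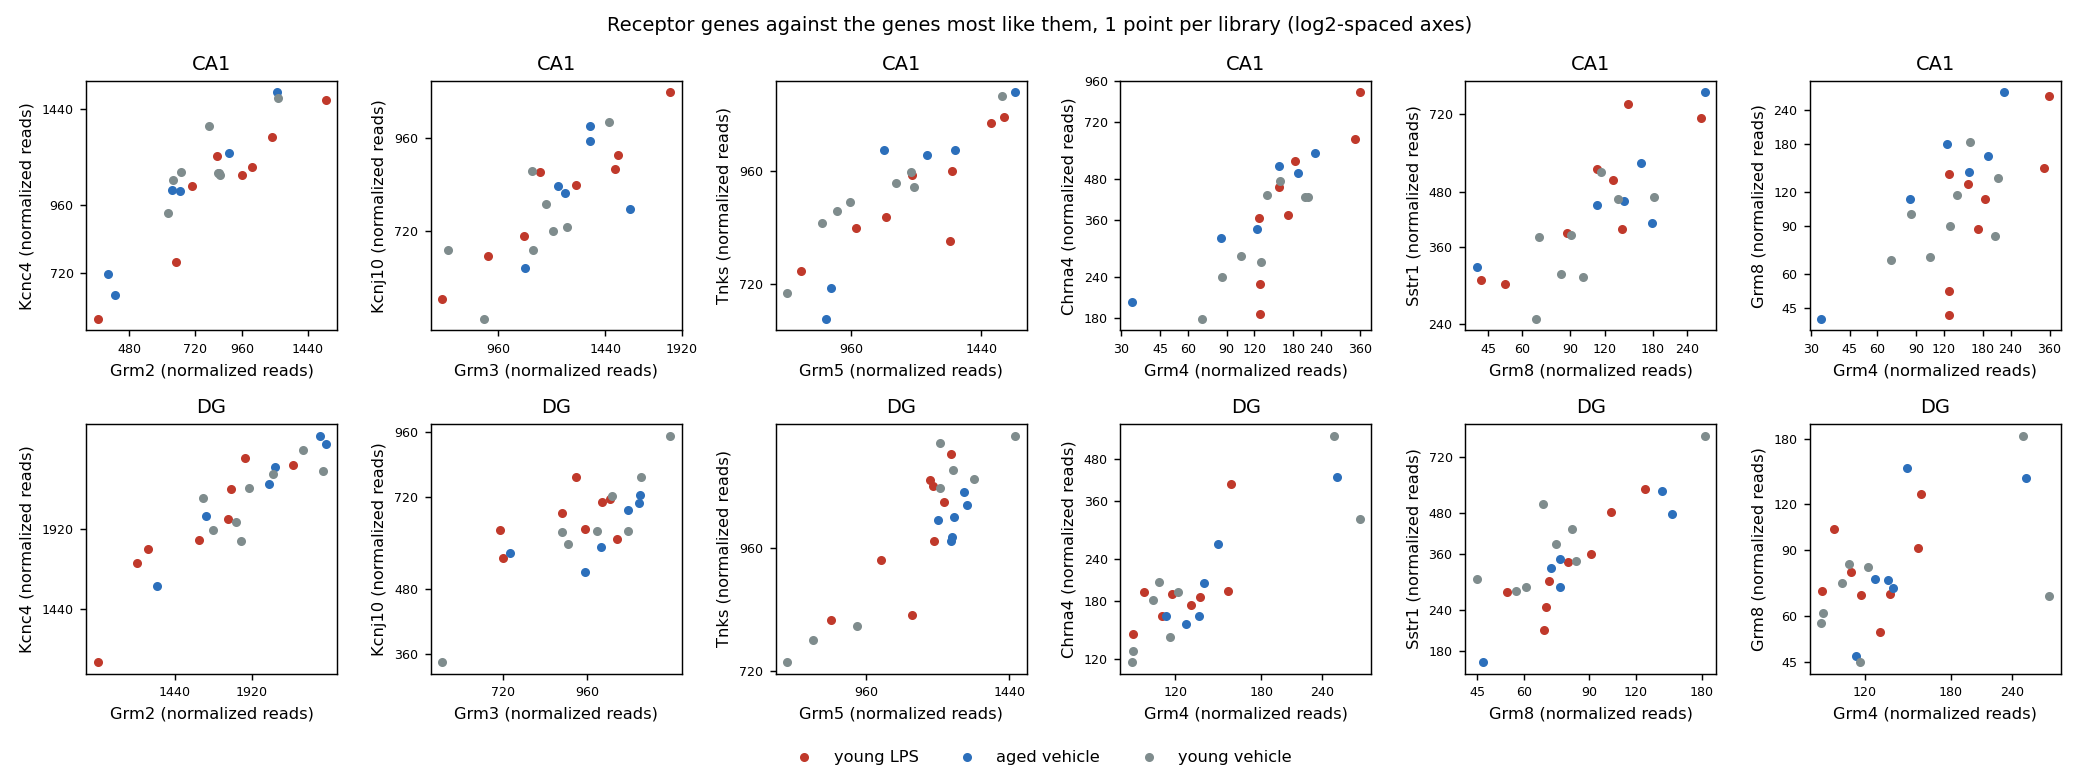
Normalized reads of a receptor gene (x axis) against a gene of like variation (y axis), both on log2-spaced axes, in CA1 (top row) and DG (bottom row), with 1 point per library (young LPS red, aged vehicle blue, young vehicle grey). The colours mix along each trend, and the top of the Grm4 trend is set by 2 LPS libraries in CA1 (360 and 341) and by 2 young vehicle and 1 aged library in DG (286, 253 and 257).

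Set against the cell type marker lists, the receptor genes varied with different ones. These r, and those of the subiculum list below, used the mean log2 level of a list, centred within groups, not its summed level. Grm2 had its highest correlation in both regions with the granule neuron markers (r = 0.71 in CA1 and 0.47 in DG, 22 libraries each), and r = -0.61 in CA1 and 0.12 in DG with the CA1 pyramidal markers. Grm3 varied with several lists, with r = 0.57 in CA1 and 0.69 in DG for astrocytes, 0.77 and 0.61 for oligodendrocytes, and 0.55 and 0.84 for oligodendrocyte precursors. For Grm3 the values were 0.70 and 0.44 with endothelial, 0.62 and 0.40 with mural and 0.44 and 0.45 with CA1 pyramidal markers. Grm8 had r = 0.47 and 0.70 with interneuron markers, 0.44 and 0.41 with oligodendrocytes, and -0.67 and -0.63 with CA2 and CA3 pyramidal markers. Grm4 had r = 0.43 and 0.55 with interneuron markers, 0.74 and 0.36 with oligodendrocyte precursors, 0.52 and 0.33 with oligodendrocytes, and -0.43 and -0.46 with CA2 and CA3 pyramidal markers. The 2 measures of the interneuron markers parted in CA1 library 2532, which had the lowest Grm4 and Grm8. Its mean log2 level was the lowest of CA1 (-0.36 from the CA1 mean), and its summed level was the highest (34862). How far the interneuron r in CA1 rests on this library was not tested.

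Grm7 ran against the glial and vascular lists, with r = -0.56 in CA1 and -0.53 in DG for astrocytes, -0.65 and -0.47 for oligodendrocyte precursors, -0.62 and -0.42 for mural cells and -0.76 and -0.28 for microglia. The neuronal lists were mixed. The r of Grm7 was 0.15 and 0.19 with granule neurons and 0.26 and -0.020 with CA2 and CA3 pyramidal markers. It was -0.40 and -0.26 with interneuron markers and -0.24 and -0.43 with CA1 pyramidal markers. Grm5 had r = 0.31 and 0.43 with granule neurons, and its lowest values were in DG, at -0.51 with meningeal fibroblasts and -0.47 with mural cells, against -0.074 and -0.13 in CA1. The meningeal list had 5 rows in DG and 11 in CA1, and the mural list 8 and 10. The r of these lists therefore do not rest on the same genes in both regions.

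The subiculum borders CA1, and a list of 8 of its marker genes, chosen after the values were seen, also moved with Grm3 (r = 0.59 in CA1 and 0.58 in DG), Grm4 (0.51 and 0.54) and Grm8 (0.58 and 0.54). The 2 CA1 libraries with the highest Grm4, LPS 2403 and 2404, had the highest subiculum marker sums (6309 and 5551, against 2287 to 4660 in the other CA1 libraries). Aged 2532, with the lowest Grm4 and Grm8 of CA1, had the lowest sum (2287). In DG the highest sums were those of young vehicle 2410 (5301), LPS 2408 (4011) and young vehicle 2526 (3983), among which 2410 and 2526 had high Grm4. Over the groups, the sum was 2466 to 6309 in young LPS, 2287 to 4581 in aged vehicle and 2294 to 4660 in young vehicle CA1 libraries, and 1325 to 4011, 1243 to 3075 and 1129 to 5301 in the same groups of DG. Most of the sum came from Fn1, Slc17a6, Nts and Tshz2, whereas Ly6g6e, Dlk1 and Gpr101 were between 0 and 29.2 normalized reads in every CA1 library. The part of the dissection border in the Grm3, Grm4 and Grm8 values was not tested.

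The genes through which these receptors act were examined as 4 lists. In the LPS and age comparisons of both regions, and between young LPS and aged vehicle in DG, none of the 24 tested Gq arm genes, 16 Gi/o arm genes, 17 desensitization and partner genes or 16 glutamate supply and uptake genes was called, against at most 0.0134% of all genes. In CA1, 8 of them were called between young LPS and aged vehicle, against 8.73% of all genes.

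On the Gq arm, which carries mGluR5 signals, 3 of 24 genes were higher in young LPS than in aged vehicle CA1 and none was lower, against 3.49% and 5.24% of all genes. Shank1, a postsynaptic scaffold linked to mGluR5 through Homer proteins, averaged 15606 ± 4790 in young LPS (SD, n = 8) and 8729 ± 2831 in aged vehicle rats (SD, n = 6) (log2 difference 0.87, SE 0.24). Dgkz, a diacylglycerol kinase that ends the lipid signal of this arm, averaged 21925 ± 4214 in young LPS (SD, n = 8) and 14275 ± 3266 in aged vehicle rats (SD, n = 6) (0.64, SE 0.15). Grasp, a scaffold of group I receptors, had a difference of 0.39 (SE 0.11). The limma adjusted p was 0.0490 for each. The median over the 24 was 0.18, against 0.022 over all genes.

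On the Gi/o arm of 16 genes, which serves group II and III receptors, 1 was higher and 2 were lower. Adcy8, a calcium-stimulated adenylyl cyclase, averaged 377 ± 26.8 in young LPS (SD, n = 8) and 258 ± 59.4 in aged vehicle CA1 (SD, n = 6) (log2 difference 0.57, SE 0.12). The inhibitory G protein alpha subunit genes Gnai3 and Gnai1 had differences of -0.52 (SE 0.14) and -0.45 (SE 0.13). The limma adjusted p was 0.0490 for these 3. The median over the list was 0.23.

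Of 17 desensitization and partner genes the receptor kinase gene Grk6 was higher in young LPS (0.45, SE 0.14, adjusted p = 0.0499 by limma), and Elfn2, for a synaptic adhesion partner of group III receptors, had a difference of 0.34 that did not pass. Of 16 glutamate supply genes Folh1 was lower, at 200 ± 56.0 in young LPS (SD, n = 8) and 414 ± 284 in aged vehicle rats (SD, n = 6) (-0.90, SE 0.23, adjusted p = 0.0490 by limma). Folh1 encodes the peptidase that cleaves NAAG, the peptide agonist of mGluR3. The cystine-glutamate exchanger gene Slc7a11 had a difference of -0.81 that did not pass (adjusted p = 0.0528 by limma). The medians of these lists were 0.15 and -0.11. Each of the 8 calls was close to the threshold: they held in 13 to 18 of 36 alternatives and in 6 to 8 of 22 with 1 library left out, and none changed sign.

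In the other comparisons the pathway genes with the smallest p are given as log2 changes that did not pass. With LPS in CA1 these were Shank1 (0.43) on the Gq arm, Adcy8 (0.26) and Kcnj9 (0.25) on the Gi/o arm, Rgs7 (-0.21) and Rgs12 (0.14) among regulators, and Slc1a4 (0.27) and Slc17a8 (-0.37) among transporters. With age in CA1 they were Dgkz (-0.49), Homer3 (-0.54), Gnai1 (0.37), Adcy8 (-0.32), Pick1 (-0.24), Grk6 (-0.32), Folh1 (0.69) and Slc38a2 (0.32). In DG with LPS they were Homer1 (0.27), Gna11 (-0.16), Adcy2 (-0.18), Gnb1 (-0.093), Rgs7 (0.15), Grk6 (-0.13), Slc1a1 (-0.12) and Slc7a11 (0.14). The gene Homer1 encodes a scaffold that binds mGluR5 directly. With age in DG they were Homer2 (0.37), Adcy8 (-0.38), Kcnj3 (-0.19), Grk5 (-0.30), Gpr158 (0.16), Slc38a1 (0.18) and Rimklb (0.17). Between young LPS and aged vehicle in DG they were Homer1 (0.24), Gna11 (-0.15), Gnai1 (-0.21), Adcy2 (-0.19), Grk5 (0.31), Grk2 (-0.13), Slc38a1 (-0.25) and Slc1a1 (-0.17). The limma adjusted p of these genes was 0.393 or higher throughout.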

How the data were processed

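Polyadenylated RNA of 44 libraries was sequenced after Ion Torrent library preparation, per the labels' protocols. The authors deposited 1 table of normalized counts per region, a signal that is never negative. The submitters' processing notes name STAR, Partek, DESeq2 and build rn6, without versions or roles; annotation and strand use are not stated there. Each library's values are whole multiples of 1 step, and dividing by it gave whole reads (tolerance 0.1) for 99.7% of positive values in CA1 and 99.97% in DG. Tables were normalized separately, so levels were not tested between regions; only group differences were.

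Tests covered the 14915 CA1 and 14904 DG genes that reached 10 in 6 or more libraries. limma 3.58.1 (R 4.3.3) was run with its trend and robust options on the 3 groups of a region together, after log2(value + 1). p-values were adjusted by Benjamini-Hochberg over all genes tested, with a threshold of 0.05. Changes on this scale are understated for low genes. Differences of group effects between regions were fitted over 44 libraries with no rat term, and with the rat as replicate block as an alternative. The rat number in the labels pairs both regions of a rat. Deviations of a rat's libraries correlated at a median of 0.051, above 0.1 in 8 of 22 rats. Only 1 of 22 CA1 libraries correlated best with the DG library of its own rat. The pairing therefore rests on the labels, and the values give little sign of it. No replicate pair agreed within counting noise (lowest chi-square per gene 4.66 in CA1 and 6.76 in DG). The procedures were tested on simulated data.

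The receptor genes and lists were chosen with earlier results of these data known; the subiculum list, number series 25 alone, the granule marker term and the omission of rats 2526, 2572 and 2532 were chosen after seeing the data. Other alternatives were pseudocounts of 5 and 0.25, no filter, a mean of at least 50, TMM scaling, edgeR 4.0.16 and DESeq2 1.42.0 on recovered reads, the compared groups alone, library weights, the number series, the dissection score, the replicate block and each library left out. Named were all 6 receptor genes, pathway genes called (up to 4 a direction, otherwise the 2 of smallest p) and the 2 genes most like each receptor gene; 1 pathway gene that this rule names is not reported here.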

Additional observations from a re-analysis of the deposited data

Results flagged for a closer look

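Of the 36 groups of libraries of the receptor genes that were examined, 4 held a library far from the others of its group, by a gap test at the 95% level that chance meets in about 1 of 20 groups. Grm2 in young vehicle CA1 was 1199 normalized reads in rat 2728, where the next library had 840 and the lowest 609. That library had the next to highest granule marker sum of CA1 (8541). Grm8 in young LPS CA1 was 269 in rat 2403, where the next library had 147. Grm4 in aged vehicle DG was 257 in rat 2415, where the next had 147. Grm8 in young vehicle DG was 183 in rat 2410, where the next had 82.8. Rats 2403 and 2410 had the highest subiculum marker sums of CA1 (6309) and DG (5301). What part tissue borders have in these 4 values was not tested.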

How the results depend on the processing

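No receptor gene was called within a region under any of the 36 alternatives of a comparison. Over 54 results of receptor genes and comparisons, 1782 recomputed values kept their direction and side of the threshold in 1691 cases and changed sign in 89, spread over 24 results; the cause was not tested. For the region difference of young LPS against aged vehicle the count of receptor genes called ran from 0 to 1 with 1 rat left out, and with the rat as replicate block it stayed 0 (Grm2 0.70, limma adjusted p = 0.162); the replicate block changed no other call. The all-gene count for LPS against age in CA1, 1302, was 3 with no filter, 2155 with edgeR, 3299 with DESeq2, 3496 with library weights and 2910 with the number series in the fit; that for the age effect in CA1, 2, was 303 with library weights, and that for LPS against age in DG, 2, was 22 with DESeq2 and 171 with library weights. The step of 2 CA1 libraries (2571 and 2411) is close to 1, so their recovered reads, used by the count tools, are less certain. The sign changes were as follows, as log2 changes. With edgeR the LPS effect was -0.0061 for Grm7 in CA1 and -0.0069 for Grm5 in DG, and the age effect -0.0032 for Grm7 in DG; with DESeq2 these were -0.0016, -0.0067 and -0.0033. With library weights the LPS effect in CA1 was -0.13 for Grm2 and for Grm7, and in DG -0.11 for Grm5; the age effect was 0.15 for Grm4 in CA1 and -0.051 for Grm7 in DG; LPS against age was -0.039 for Grm5 in CA1. With the number series in the fit the LPS effect of Grm8 was -0.099 in CA1 and -0.17 in DG, the age effect in DG -0.027 for Grm2, -0.10 for Grm4 and -0.32 for Grm8, and LPS against age in DG 0.15 for Grm8; together with the replicate block the region difference of the LPS effect of Grm8 was 0.072. The dissection score gave -0.039 for the LPS effect of Grm8 in CA1, and age effects of 0.13 for Grm2 in CA1, -0.022 for Grm3 in DG and -0.013 for Grm4 in DG, and the granule marker mean -0.058 for the LPS effect of Grm8 and 0.020 for the age effect of Grm2, both in CA1. Number series 25 alone gave LPS effects in CA1 of -0.33 for Grm3, -0.17 for Grm4 and -0.64 for Grm8, age effects of -0.38 for Grm8 in CA1 and, in DG, -0.038 for Grm2, -0.13 for Grm4, -0.019 for Grm7 and -0.25 for Grm8, and LPS against age of -0.015 for Grm5 in CA1 and, in DG, 0.054 for Grm4 and 0.36 for Grm8. Without rats 2526, 2572 and 2532 the LPS effect was -0.098 for Grm7 in CA1 and -0.10 for Grm5 in DG, the age effect 0.26 for Grm4 in CA1 and -0.014 for Grm7 in DG, and LPS against age -0.014 for Grm5 in CA1.

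Leaving out 1 library at a time changed the sign of 18 results. The LPS effect ran from -0.0093 to 0.28 for Grm2, from -0.085 to 0.057 for Grm7 and from -0.11 to 0.26 for Grm8 in CA1, and from -0.20 to 0.018 for Grm4, from -0.053 to 0.080 for Grm5 and from -0.0053 to 0.28 for Grm8 in DG. The age effect ran from -0.34 to 0.20 for Grm4 in CA1, and in DG from -0.051 to 0.13 for Grm2, -0.055 to 0.14 for Grm3, -0.055 to 0.26 for Grm4 and -0.042 to 0.033 for Grm7. LPS against age ran from -0.014 to 0.16 for Grm5 in CA1 and from -0.27 to 0.060 for Grm8 in DG. The region difference ran from -0.00090 to 0.17 for Grm7 and -0.20 to 0.15 for Grm8 with LPS, from -0.47 to 0.022 for Grm4 and -0.15 to 0.085 for Grm5 with age, and from -0.016 to 0.11 for Grm3 between LPS and age. Grm4 and Grm8 had as few as 23 and 28 reads in a library, both in CA1 library 2532. Their coefficients of variation within groups reached 51.6% and 58.0%. Changes of the size measured in them may therefore be missed at this spread between rats, depth and number of rats.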
